A study of Caenorhabditis elegans with 40 samples.

Results

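HSF-1, which drives transcription of chaperone genes on heat shock, was found at the promoters of hsp-1 and hsp-110 in unstressed and in heat-shocked young adult Caenorhabditis elegans. hsp-1 encodes the constitutive cytosolic HSP70 of the worm, and hsp-110 its HSP110, a distant relative of HSP70. The sites were chosen by gene, as every HSF-1 summit within 1000 bp of a protein-coding transcription start site (TSS) of these 2 of 19973 protein-coding genes. That gave 4 of the 941 summits in the files, 1 for each gene at 20 °C and 1 for each gene at 34 °C, and all 4 stood in a list of regions lost on HSF-1 depletion, as did 93.6% of the 941.

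HSP70 chaperones bind unfolded stretches of protein in a cycle driven by ATP. J-domain proteins bring substrates and start ATP hydrolysis, and nucleotide exchange factors, HSP110 among them, release ADP so that the substrate can leave. With HSP110 and J-domain partners, metazoan HSP70 can also pull proteins out of aggregates. Constitutive members such as hsp-1 serve protein folding in growing cells, while other cytosolic HSP70 genes are switched on by heat. HSF-1 also acts without heat, in development and in the germline.

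Binding was measured by chromatin immunoprecipitation and sequencing (ChIP-seq) with an antibody to GFP. Every strain carried hsf-1::aid::gfp, an HSF-1 with an auxin-inducible degron and GFP. Strain JTL611 expressed TIR1, the plant F-box protein that recognises the degron in the presence of auxin, from the eft-3 promoter (ieSi57), which the labels give as soma. Strain JTL621 expressed it from the sun-1 promoter (ieSi38), which the labels give as germline. Both carried unc-119(ed3) with a Cbr-unc-119(+) rescue and mRuby on TIR1, so all groups shared the tagged HSF-1 and a TIR1 transgene. Animals of each strain spent 2 h on auxin plates (depletion) or ethanol plates (control) and were collected at 20 °C or after 30 min in a water bath at 34 °C. This gave 8 HSF-1 ChIP groups of 2 libraries. The files hold lists of peaks without values per library, so neither the spread between replicates nor the depth is known, and no difference below has a replicate check or a p-value of its own. The labels do not say whether replicate libraries were grown as separate cultures. The chromatin came from whole animals, so the number of cells with bound HSF-1 and the binding per cell cannot be told apart.

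For every summit the files give the peak score of the authors. For every listed region they give a soma score, a germline score or both, from the authors' comparison of ethanol with auxin plates in the strain of that tissue. These depletion scores are on a negative log scale of a p-value whose base the header leaves out, and a higher score marks a region lost more clearly. Regions lost in both strains are called shared here, and those lost in 1 strain soma or germline. Soma and germline scores come from separate comparisons, so an equal number on both does not mean an equal loss. Each was therefore also ranked within its own list, and peak scores were ranked within a temperature. By the peak names all summits came from JTL611, the soma strain, so the peak scores may not describe JTL621.

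The hsp-1 summit lay upstream of the gene at both temperatures. hsp-1 (WBGene00002005) is annotated on the plus strand of chromosome IV from 17278959 to 17281330, with 1 protein-coding transcript. At 20 °C its summit stood at position 17278538, 421 bp upstream of the TSS. At 34 °C it stood at 17278575, 384 bp upstream and 37 bp from the summit at 20 °C. Both positions are intergenic, 36 and 73 bp from the noncoding gene F26D10.23, and no other protein-coding TSS lay within 1000 bp. The nearest summit beyond that limit was 5065 bp from the hsp-1 TSS at 20 °C, in the germline class beside gln-5, a glutamine synthetase gene. After heat shock it was 123120 bp away.

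The hsp-110 summit lay between divergent genes. hsp-110 (WBGene00016250) is annotated on the minus strand of chromosome III from 8443910 to 8446909, also with 1 protein-coding transcript. Its summit stood at 8447142 at 20 °C, 233 bp upstream of the TSS, and at 8447127 at 34 °C, 218 bp upstream and 15 bp from the first. On the other side lies rpn-3, which encodes a subunit of the proteasome regulatory particle and is transcribed away from hsp-110. The TSSs of hsp-110 and rpn-3 are 444 bp apart, and the summits were 211 and 226 bp upstream of rpn-3. The hsp-110 summit thus cannot be given to 1 of these genes by distance. A noncoding gene, C30C11.14, lies in the same interval, 47 and 32 bp from the summits. Positions are those of the authors' files, set against the WBcel235 annotation. No source used here names the build of those files, so distances to a TSS could shift with it. On IV, more summits lay close to a TSS when moved by 500 bp (40 to the right and 37 to the left of 240) than as deposited (31), and on III fewer did (23 and 26, against 29 of 130). Both promoters kept their summits within 1000 bp after such a move, which the distances above made certain, so this does not bear on the build.

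**Figure D1:**
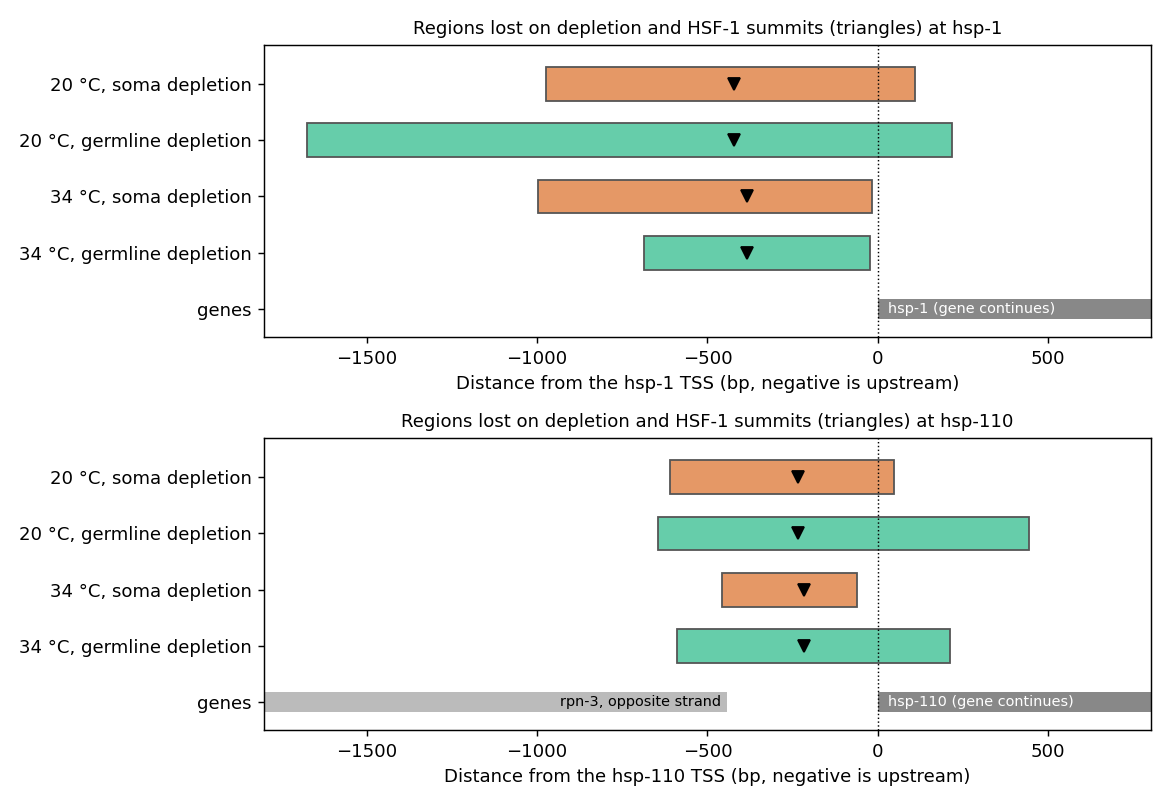
Regions lost on soma (orange) and germline (green) depletion, as bars, and HSF-1 summits, as triangles, against the distance from the hsp-1 TSS (top) and the hsp-110 TSS (bottom) in bp at 20 °C and 34 °C. Every bar holds its summit, and the germline bar at hsp-1 is 1895 bp wide at 20 °C and 663 bp wide at 34 °C.

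The regions lost on depletion were wider at 20 °C than at 34 °C for both genes and both tissues. At hsp-1 the soma region was 1082 bp wide at 20 °C and 980 bp at 34 °C, and the germline region 1895 and 663 bp. The germline region at 20 °C ran from 1676 bp upstream to 218 bp into the gene, and at 34 °C it ended 23 bp short of the TSS. At hsp-110 the soma region was 659 and 396 bp wide, and the germline region 1089 and 802 bp. The germline region reached 443 bp into hsp-110 at 20 °C and 211 bp at 34 °C, while the soma region at 34 °C ended 63 bp short of the TSS. All 4 regions at hsp-110 also overlapped the start of rpn-3. The map of regions and summits shows these widths. The widths of other listed regions were not compared between temperatures, so the narrowing is not shown to be particular to these genes.

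A further shared-class summit lay 4234 bp from the hsp-110 TSS at 20 °C and 4227 bp at 34 °C, inside the neighbouring gene ufbp-1. By the names in the files the ufbp-1 and hsp-110 summits belonged to peaks 453 and 454 at 20 °C. At 34 °C both carried the number 176, with the letters a and d. MACS2 gives letters to several summits of 1 called peak. By this naming 1 peak covered the hsp-110 gene and both flanks after heat shock, against separate peaks at 20 °C. The letter b stood on the hsp-1 summits at both temperatures and on the hsp-110 summit at 20 °C. By the same naming each of these was 1 of several summits of its peak. The nearest other common summit was in a different peak each time. In the authors' deposited table the ufbp-1 region had germline scores of 197 at 20 °C and 221 at 34 °C, against soma scores of 14.9 and 36.1. At this intragenic site the germline score was the higher of the pair at both temperatures, unlike at the hsp-110 promoter after heat shock (below).

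hsp-1 was among the stronger peaks near a TSS in unstressed animals. Its peak score of 21243.5 at 20 °C was the 38th highest of 500 common summits and the 7th of the 190 with a protein-coding TSS within 1000 bp. After heat shock its score was 5629, the 168th of 441 summits and the 32nd of 129 near a TSS. hsp-110 had a peak score of 3542 at 20 °C, the 83rd of 500 and the 15th of 190, and of 7791 at 34 °C, the 136th of 441 and the 24th of 129. Peak score percentiles, the share of common summits at or below a score, were thus 92.6 and 62.1 for hsp-1 and 83.6 and 69.4 for hsp-110. Within the shared class alone, hsp-1 was the 38th of 242 at 20 °C and the 160th of 257 at 34 °C, and hsp-110 the 83rd and the 131st. These lists differ in length and in the peaks they hold (median peak score of the shared class 2079 at 20 °C and 7994 at 34 °C), so these places describe each temperature and show no change between them.

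The class of both promoters was shared at 20 °C and again at 34 °C. At 20 °C 42.7% of the 178 listed peaks near a TSS were in the shared class, and at 34 °C 37.2% of 113. Of the 178, 28 were in the shared class at both temperatures (15.7%, exact 95% confidence interval 10.7 to 21.9, counting error only), and 2 of these 28 were the peaks described here. Of the 76 shared-class peaks near a TSS at 20 °C, 36.8% were again shared at 34 °C, 35.5% were in the soma class and 27.6% had no listed peak.

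The same 28 peaks near a TSS, called promoter pairs here, could be ranked at both temperatures. Among them hsp-1 had the 6th highest peak score at 20 °C and the 22nd at 34 °C. dnj-13, which encodes a J-domain partner of HSP70, was the 9th and the 24th, and hsp-110 the 12th and the 17th. By the scores themselves, 2 of the 28 pairs (7.14%) were lower at 34 °C, and these were hsp-1 and dnj-13. The score at 34 °C over that at 20 °C was 0.265 for hsp-1, the lowest of the 28, 0.927 for dnj-13 and 2.20 for hsp-110, the 5th lowest, against a median of 5.04. The pairs ranked 1st to 5th at 20 °C also had ratios below that median, from 1.57 to 2.96. The 7th, at ZC262.7, had 7.15. The files do not say how peak scores were scaled. A common factor between temperatures would leave the order of these ratios as it is, but not their size. The 28 were chosen for being in the shared class at both temperatures, so peaks that left the class or were not called again are not among them. Outside the 28, scores were also lower at 34 °C at dnj-12 (2940, then 1230), sti-1 (693, then 183) and bag-1 (564, then 262). The same held at hsp-6 (403, then 143) and at the unc-23 summit called at both temperatures (1037, then 304). Scores were higher at F44E5.4 with F44E5.5 (25068, then 55981), hip-1 (267, then 602) and hsp-70 (93.3, then 748). These are HSP70 genes or their partners, described below, so a lower score was not particular to hsp-1 and dnj-13.

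**Figure D2:**
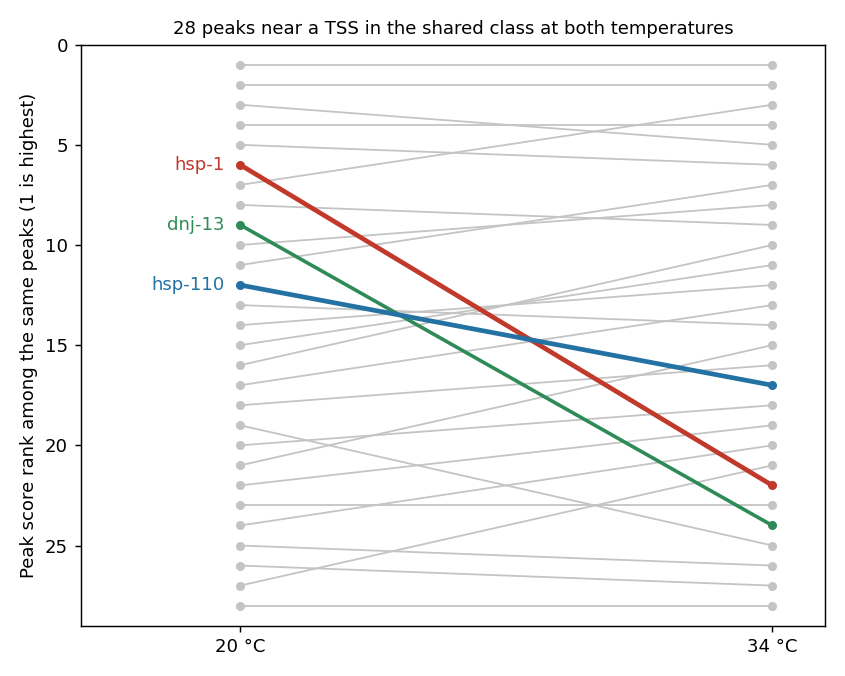
Rank by peak score (y axis, 1 is the highest) at 20 °C and 34 °C (x axis) among the same 28 peaks near a TSS that were in the shared class at both temperatures, 1 line a peak. hsp-1 is the 6th and then the 22nd, dnj-13 the 9th and then the 24th, and hsp-110 the 12th and then the 17th, with the other 25 peaks in grey.

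In the deposited scores, but not in their ranks, the germline led at both promoters at 20 °C and the soma at 34 °C. In the authors' deposited table the hsp-1 region at 20 °C had a soma score of 205 and a germline score of 458. At 34 °C the authors' deposited table gives 46.2 for the soma and 31.9 for the germline. For hsp-110 the authors' deposited table gives a soma score of 66.2 and a germline score of 83.96 at 20 °C, and 163 and 44.7 at 34 °C. The germline score was thus the higher of the pair at 20 °C at both promoters, and the soma score at 34 °C. As a ratio, soma over germline, hsp-1 had 0.448 at 20 °C and 1.45 at 34 °C, and hsp-110 0.789 and 3.65. Ranked each within its own list, the soma score stood above the germline score at both temperatures. At hsp-1 the soma percentile within the shared class was above the germline percentile by 31.8 points at 20 °C and by 39.3 points at 34 °C. At hsp-110 it was above by 56.6 and 69.3 points. The order of the scores therefore depends on the scale of each comparison, and by rank it was the same at both temperatures.

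A higher germline than soma score was the usual order. The germline score was above the soma score in 82.9% of the 76 shared-class peaks near a TSS at 20 °C and in 85.7% of the 42 at 34 °C. A germline score above the soma score at 20 °C and below it at 34 °C was seen in 5 of 27 promoter pairs (18.5%), where 2 summits at ZK1053.2 with the same regions count as 1 pair. Besides hsp-1 and hsp-110 with rpn-3, these were the peaks at idpc-1, at glb-33, a globin gene, and at xbx-4 with C23H5.8. A pair needs a germline score at 34 °C. The 35.5% of the 76 shared-class peaks near a TSS that were in the soma class at 34 °C have none there. They are not counted in this share. After heat shock, the soma to germline ratio of hsp-110 was the highest of the 42 shared-class peaks near a TSS and that of hsp-1 the 5th highest, against a median of 0.372. At 20 °C hsp-110 was the 18th and hsp-1 the 28th of 76, against a median of 0.300. Over the whole shared class at 34 °C hsp-110 was the 3rd and hsp-1 the 16th of 257. Peaks of the soma class have no germline score, so they have no ratio. At 34 °C these were 42.5% of the 113 listed peaks near a TSS.

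**Figure D3:**
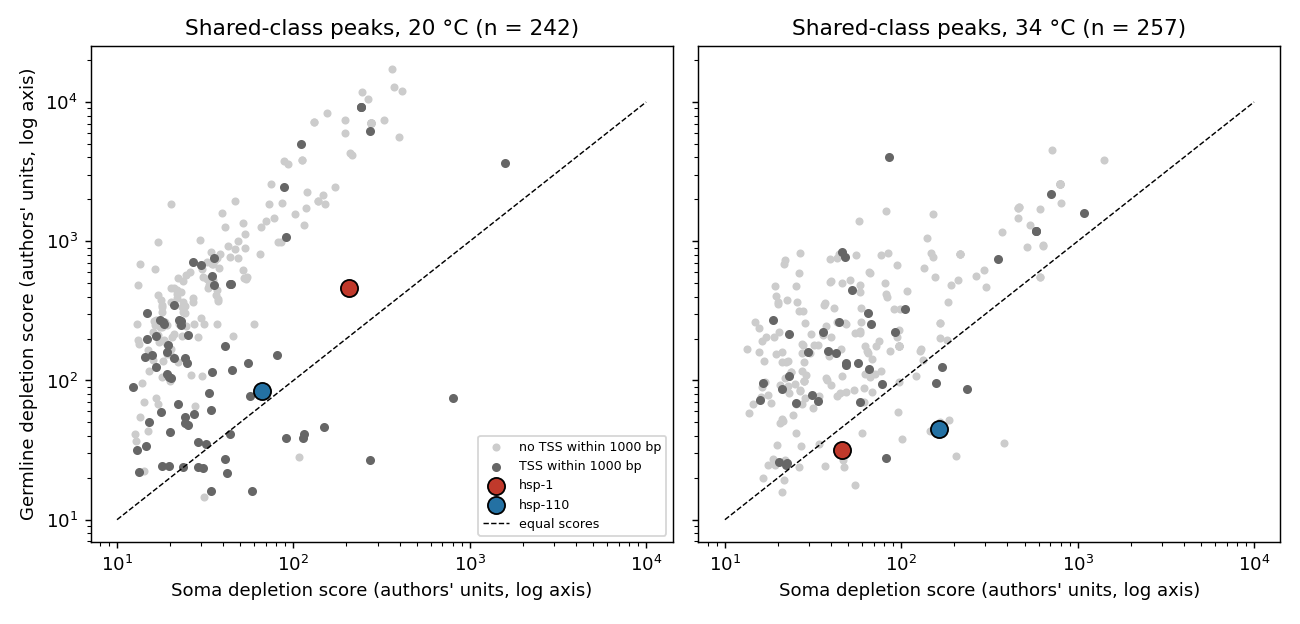
Germline against soma depletion score (both on log axes, in the units of the authors) for all shared-class peaks at 20 °C (left, 242 peaks) and 34 °C (right, 257 peaks), with peaks near a TSS in dark grey. hsp-1 and hsp-110 lie above the dashed line of equal scores at 20 °C and below it at 34 °C.

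Each score was also compared on its own over the same 27 pairs of regions. At hsp-1 both scores were lower at 34 °C than at 20 °C. Among the 27, its soma score was the 4th highest at 20 °C and the 18th at 34 °C, and its germline score the 12th and the 25th. At hsp-110 the soma score was higher at 34 °C, the 9th and the 7th of 27, and the germline score lower, the 25th and the 24th. A lower germline score at 34 °C was seen in 20 of the 27 pairs (74.1%), so it was the common direction. A lower soma score, as at hsp-1, was seen in 8 of 27 (29.6%). The peak score rank of hsp-1 moved with these scores, and its part in them was not tested. Within the whole shared class, the soma percentile of hsp-1 was 89.3 at 20 °C and 46.7 at 34 °C, and its germline percentile 57.4 and 7.39. For hsp-110 the soma percentiles were 74.8 and 80.2 and the germline percentiles 18.2 and 10.9, again over lists that hold different peaks.

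After heat shock both promoters stood low in the germline column of the shared class. The hsp-1 germline score of 31.9 was the 239th highest of 257 in the shared class, and that of hsp-110 the 230th. The lowest germline score in that list was 15.8 and the median 180. A region below the threshold of the authors has no germline score and would stand in the soma list. The shared class of both promoters at 34 °C thus rests on germline scores in the lower part of the shared list. In the germline class at 34 °C the median germline score was 45.0, close to the 44.7 of hsp-110 and above the score of hsp-1. Among the 65 germline scores near a TSS, hsp-110 was the 43rd and hsp-1 the 50th. The peak score of hsp-1 was below the median of the shared list (7994), the 160th of 257. That of hsp-110, 7791, was close to this median, the 131st. Among the 42 shared-class peaks near a TSS, hsp-110 was the 20th, above their median of 7547, and hsp-1 the 27th. The part of peak height in the germline scores was not tested.

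Among the HSP70 genes with a summit at 34 °C, hsp-1 and hsp-110 were in the shared class and the others in the soma class. Of 12 HSP70 superfamily genes, 6 had a summit near a TSS at 20 °C and 7 at 34 °C, against 1.27% and 0.806% of all protein-coding genes. At 20 °C 4 were in the shared class, hsp-1, hsp-110 and the heat-inducible pair F44E5.4 and F44E5.5, which share 1 summit. hsp-6 was in the soma class, as were 14% of listed peaks near a TSS at 20 °C, and hsp-70 was in no class. At 34 °C 5 genes with 4 summits were in the soma class, as were 42.5% of listed peaks near a TSS. These were F44E5.4 and F44E5.5, hsp-70, which is heat-inducible, hsp-4, which encodes the endoplasmic reticulum BiP, and hsp-6, the mitochondrial HSP70. hsp-3, F11F1.1, T14G8.3, T24H7.2 and stc-1 had no common summit near a TSS at either temperature. F44E5.4 and F44E5.5 are near-identical, so reads may be shared between them.

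The hsp-1 summit and that of F44E5.4 and F44E5.5 were close in peak score before heat shock. F44E5.4 and F44E5.5 had 25068 at 20 °C, the 30th of 500, against the 38th for hsp-1. After heat shock the F44E5.4 and F44E5.5 summit was the 34th of 441 and hsp-1 the 168th. In the authors' deposited table the F44E5.4 and F44E5.5 region had a soma score of 807 and a germline score of 75.4 at 20 °C, a ratio of 10.7 against 0.448 at hsp-1. At 34 °C the authors' deposited table gives it a soma score of 549 and lists it in the soma class. hsp-70, the other inducible gene, was weak by score at both temperatures, the 411th of 500 and the 307th of 441. hsp-6 was the 265th of 500 and the 409th of 441, and hsp-4 the 356th of 441 after heat shock.

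Of 8 genes of the HSP70 cycle, 7 had a summit near a TSS at 20 °C and 6 at 34 °C, to be read against the same shares of all genes (1.27% and 0.806%). At 20 °C 5 were in the shared class, dnj-12, dnj-13 and dnj-19, which encode J-domain proteins, bag-1, which encodes a BAG-domain exchange factor, and sti-1, which encodes the adaptor between HSP70 and HSP90. unc-23, the other BAG-domain gene, was in the soma class and hip-1, the HSP70-interacting protein gene, in the germline class. At 34 °C dnj-13 alone of these 8 was in the shared class. dnj-12, bag-1, unc-23, sti-1 and hip-1 were in the soma class (42.5% of listed peaks near a TSS), and dnj-19 had no summit. chn-1, which encodes the CHIP ubiquitin ligase, had none at either temperature.

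In the authors' deposited table hsp-1 had the highest germline score at 20 °C of the genes of both lists, 458, followed by hsp-110 with 83.96 and F44E5.4 with F44E5.5 with 75.4. The authors' deposited table gives 61.2 for sti-1, 55.0 for hip-1 and 46.4 for dnj-13. It gives bag-1 41.5, dnj-12 38.6 and dnj-19 23.8, again from the authors' deposited table. dnj-13 had a soma score above its germline score at both temperatures, 150 against 46.4 and 82.0 against 27.5 in the authors' deposited table. It lay 216 bp upstream of the dnj-13 TSS at 20 °C and 222 bp at 34 °C, a distance like that of hsp-110.

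**Figure D4:**
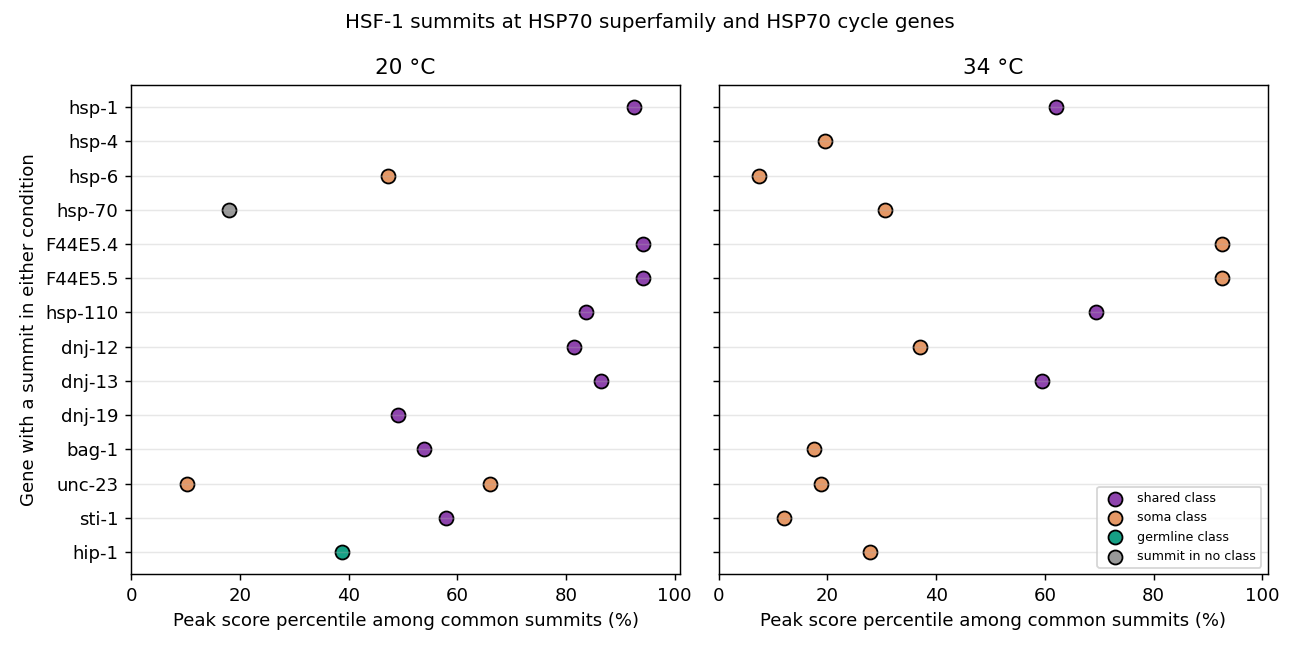
Peak score percentile among common summits (x axis, %) at 20 °C (left) and 34 °C (right) for the HSP70 superfamily and HSP70 cycle genes with a summit near a TSS, coloured by class. hsp-1, hsp-110 and dnj-13 are the genes in the shared class in both panels, at 62.1, 69.4 and 59.4 after heat shock.

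The peaks most like each promoter were sought among the other 27 promoter pairs, by the mean absolute difference over 6 percentiles (peak, soma and germline score at each temperature). For hsp-1 the closest was the peak at dnj-13 and F54D5.9, with a mean difference of 15.0 points. It was followed by F28B1.2 (18.5), hsp-110 with rpn-3 (19.2), vamp-8 (20.1), a SNARE gene, and W01A11.1 (22.1), against a median of 30.4 over all 27. For hsp-110 the closest was the peak at C23H5.8 and xbx-4, with 7.98 points. It was followed by dnj-13 with F54D5.9 (10.5), ketn-1 (19.08), which encodes the muscle protein kettin, idpc-1 (19.1) and hsp-1 (19.2), against a median of 29.7. dnj-13 was thus near both, while hsp-110 had closer neighbours than hsp-1 did. With Euclidean distance 3 of the 5 peaks named for hsp-1 stayed among its closest 5.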

How the data were processed

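The labels describe 40 libraries. The HSF-1 ChIP libraries were made from animals fixed in 2% formaldehyde, with chromatin of 200 to 600 bp and 0.5 µg per precipitation, per the labels' protocols. The 16 RNA polymerase II libraries and the 8 inputs were not analysed here. The submitters' processing notes name Bowtie2 and MACS2 without versions. No source used here gives the genome build, the filters or any pooling of replicates. The deposited values are scores of the authors, a peak score per summit and depletion scores per region, per the file headers. By the peak names all summits came from JTL611.

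From the 6 class lists and 2 files of common summits, 8 repeat rows at 34 °C were dropped. Summits were assigned to any protein-coding TSS within 1000 bp (Ensembl release 115, WBcel235; 19956 of 19973 gene names matched the name table). Peaks of the 2 temperatures were paired by overlapping regions or summits within 100 bp, taking the nearest. The fit of the coordinates was checked by counting summits within 300 bp of a TSS before and after a move by 500 bp. It was not resolved on III or on IV.

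No test over samples could be run, as no file holds values per library. Values are described by ranks, and the interval is exact binomial. The members, the 2 gene lists and the rules were chosen with earlier results of these data known. Named genes were the 2 members, genes with a TSS near their summits, listed genes with a summit, and the 5 peaks most like each member. Other genes named, at summits beyond 1000 bp and at the pairs that changed order, were picked once values had been seen. The ranking, pairing and assignment functions were tested on simulated data. Alternatives changed the TSS distance, the pairing, the set ranked over and the score threshold. Computations used Python 3.11.15, NumPy 2.4.6, pandas 2.3.3, SciPy 1.17.1 and Matplotlib 3.10.9.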

Additional observations from a re-analysis of the deposited data

How the results depend on the processing

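With a TSS distance of 500 or 2000 bp, with gene starts only, and with summits moved by 500 bp to either side, all 4 summits stayed assigned and in the shared class. This was fixed in advance and is no check. The summits lay 218 to 421 bp from the TSS, each gene has 1 transcript, and the class does not depend on the distance. With peaks at or above the median peak score of their list, 2 of 4 were left, as both summits at 34 °C scored below 7994. The share of peaks near a TSS that were in the shared class at both temperatures (15.7%) was 7.14% with a TSS distance of 500 bp and 26.0% with 2000 bp. Percentiles shift with the set they are ranked over, by construction. Over the shared class alone, the peak score percentile was 84.7 and 38.1 for hsp-1 at 20 and 34 °C, and 66.1 and 49.4 for hsp-110. Over summits near a TSS it was 96.8 and 76.0 for hsp-1, and 92.6 and 82.2 for hsp-110. Over all rows with a germline score, the germline percentile was 73.6 and 13.8 for hsp-1, and 31.6 and 21.2 for hsp-110. Over shared-class peaks near a TSS it was 81.6 and 11.9 for hsp-1 and 43.4 for hsp-110 at 20 °C, and the soma percentile of hsp-110 at 20 °C was 80.3. In an alternative chosen after seeing the data, over the same 28 peaks at both temperatures, the peak score percentile was 82.1 and 25 for hsp-1 and 60.7 and 42.9 for hsp-110. Of 55 alternative values, 31 stayed within the interval or the 1.5-fold range of the main value and 24 did not. The 31 include values that could not move, so they are no measure of robustness. Among them are those fixed by the distances above. Values with repeat rows kept equalled the main ones, and the lists at 20 °C held no repeat rows. No paired analysis was possible because values per library are not in the lists, and leaving out a library was not possible for the same reason. The planned search for heat shock elements was not run, as no sequence was used here.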
